A study of Homo sapiens with 6 samples.

Results

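Transcripts of 10 genes for heparan sulfate proteoglycans and the sulfatases that edit their chains were measured in TC-71 cells, a long-established line from a human Ewing sarcoma. They are the extracellular sulfatases SULF1 and SULF2, the syndecans SDC1, SDC2, SDC3 and SDC4, the glypicans GPC1, GPC3 and GPC4, and perlecan, encoded by HSPG2. The genes were taken by symbol, 10 of 60662 in the count table, and the group was chosen by earlier results of this comparison (SULF1 and SDC3 were higher with XG knockout), so fold changes below describe the genes and are not independent evidence. The groups were 3 libraries of TC-71 with XG knockout and 3 of wildtype TC-71, both listed as untreated, grown in one medium and sequenced as stranded, paired-end mRNA libraries. The product of XG is a membrane glycoprotein known as the Xg antigen of red cells. Whether the knockout line is 1 clone or a pool, and whether replicates are separate cultures, is not given in the labels, so differences between clones and those of the knockout cannot be told apart, and p-values measure only the spread between libraries, which may be of technical origin.

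Heparan sulfate is a long sugar chain built in the Golgi on serines of a core protein and sulfated in a pattern that decides which proteins bind it. Syndecans carry the chains on a membrane-spanning core, glypicans on a core held by a lipid anchor, and perlecan in the basement membrane. On these chains, growth factors of the FGF, WNT, hedgehog and BMP families are held or presented to their receptors. SULF1 and SULF2 work outside the cell and remove selected sulfate groups from finished chains, which alters that binding.

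RefSeq start sites (GRCh38.p14) were used for 7 of the 10 genes, with 11 start sites in all. SULF1, SDC2 and GPC3 have no window here, so the counts of sites below do not cover them. The lack of a window does not mean that a gene has no annotated start. The 250 bases before the start are shown for SDC3, which was higher in knockout cells, for HSPG2, which had a similar positive fold change that missed the threshold, and for GPC1, whose promoter is as GC-rich but whose level was close in both groups. They are written 5′ to 3′ on the gene's strand, at chr1:30908759-30909008 (minus strand), chr1:21937311-21937560 (minus strand) and chr2:240435413-240435662 (plus strand), and capitals mark the GC box GGGCGG, the letters of a site that SP-family factors are known to bind, on either strand.
SDC3: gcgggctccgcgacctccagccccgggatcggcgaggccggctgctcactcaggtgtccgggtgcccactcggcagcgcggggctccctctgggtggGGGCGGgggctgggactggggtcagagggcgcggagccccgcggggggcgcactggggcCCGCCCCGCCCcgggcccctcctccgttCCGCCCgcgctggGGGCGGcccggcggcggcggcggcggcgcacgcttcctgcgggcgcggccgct
HSPG2: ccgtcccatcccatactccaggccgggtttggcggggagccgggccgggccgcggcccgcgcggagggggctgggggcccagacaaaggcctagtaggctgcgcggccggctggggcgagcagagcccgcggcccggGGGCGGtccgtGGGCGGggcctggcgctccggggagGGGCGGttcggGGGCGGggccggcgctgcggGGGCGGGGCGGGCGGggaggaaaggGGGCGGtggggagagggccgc
GPC1: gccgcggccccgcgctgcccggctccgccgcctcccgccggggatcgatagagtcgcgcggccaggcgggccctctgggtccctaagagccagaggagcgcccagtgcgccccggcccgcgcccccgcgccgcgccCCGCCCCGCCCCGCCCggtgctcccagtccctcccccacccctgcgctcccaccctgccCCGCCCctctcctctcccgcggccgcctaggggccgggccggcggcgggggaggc
The SDC3 window was 83.6% G or C and held 5 GC boxes, the HSPG2 window 82.8% with 8, and the GPC1 window 84.0% with 4, counting boxes that overlap. The other windows held 8 GC boxes (SDC4), 2 (GPC4), 1 in each of the SDC1 windows, and 5, 1, 0 and 0 in the SULF2 windows. Among all 35116 windows of this length the median GC content was 58.0%, and 42.6% held a GC box. The letters TATAAA were in none of the 11 windows and in 10.7% of all windows. GGAAGGAA, a short run of the GGAA repeat that EWSR1-FLI1, the fusion protein of Ewing sarcoma, is known to bind, was in none of them and in 3.06% of all windows. The E-box CACGTG was in 1 SULF2 window and in 6.34% of all windows. The part of promoter GC content and of these sites in the fold changes was not tested.

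The genes lie on 5 chromosomes (GRCh38). HSPG2 (ENSG00000142798.20) spans 21822244 to 21937310 and SDC3 (ENSG00000162512.16) 30869466 to 30908758 on the minus strand of chromosome 1. On chromosome 2, SDC1 (ENSG00000115884.11) spans 20200797 to 20225433 on the minus strand and GPC1 (ENSG00000063660.9) 240435663 to 240468076 on the plus strand. SULF1 (ENSG00000137573.14) spans 69466624 to 69660915 and SDC2 (ENSG00000169439.12) 96493813 to 96611790 on the plus strand of chromosome 8. On the minus strand of chromosome 20, SDC4 (ENSG00000124145.6) spans 45325288 to 45348424 and SULF2 (ENSG00000196562.14) 47656348 to 47786616. GPC4 (ENSG00000076716.9), at 133300103 to 133415489, and GPC3 (ENSG00000147257.15), at 133535745 to 133985594, are neighbours on the minus strand of chromosome X, with 120255 bases between them. No other gene of the same strand overlapped an exon of any of the 10; on the other strand, 2 genes overlapped SULF2 and 1 overlapped HSPG2, and the authors counted by strand.

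Library totals were 22557187 to 31214099 counts, and 14425 genes passed the filter on low counts. XG was lower but present in all 3 knockout libraries, at 30.0, 30.0 and 28.9 CPM (counts scaled to library size) in knockout replicates 1, 2 and 3, against 45.4, 47.1 and 44.4 CPM in wildtype replicates 1, 2 and 3 (log2 fold change -0.63, edgeR adjusted p = 1.65e-06). All 10 markers of the Ewing sarcoma line were above the filter, with a summed level of 2612 to 2662 CPM in knockout and 2752 to 2786 CPM in wildtype libraries (CD99 called). Summed levels were 73.1 to 82.3 in knockout against 77.4 to 83.3 CPM in wildtype libraries for 8 stromal markers (POSTN at 0, COL1A2 and PDGFRA below the filter), 7.01 to 7.59 in knockout against 5.14 to 5.72 CPM in wildtype libraries for 5 epithelial markers (KRT18 called, EPCAM, KRT19 and CDH1 below the filter), and at most 0.362 CPM for each of the endothelial and blood lists. In a bulk sample, fewer cells of a type and less RNA per cell cannot be told apart; the part of these markers in the results was not tested. Knockout replicates 1 and 2 stood apart from the other 4 libraries by GC content. By chi-square per gene, knockout replicate 3 differed less from each wildtype library (2.19 to 2.52) than from knockout replicates 1 (4.76) and 2 (4.48). Over the 2872 genes with the GC-richest transcripts (57.8% to 74.5%), the median log2 deviation from the wildtype mean was -0.154, -0.125 and 0.0128 in knockout replicates 1, 2 and 3, and within 0.01 of 0 in wildtype libraries. Over the 2872 GC-poorest the medians were 0.0648, 0.0596 and 0.0049 in knockout replicates 1, 2 and 3. Transcripts of GPC1 (66.7%), HSPG2 (64.5%), SDC1 (60.1%) and SDC3 (58.7%) are in the GC-rich class, so results for these genes are given with and without those libraries or with a GC correction. The transcript of SULF1 has a GC content of 42.5%.

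**Figure D1:**
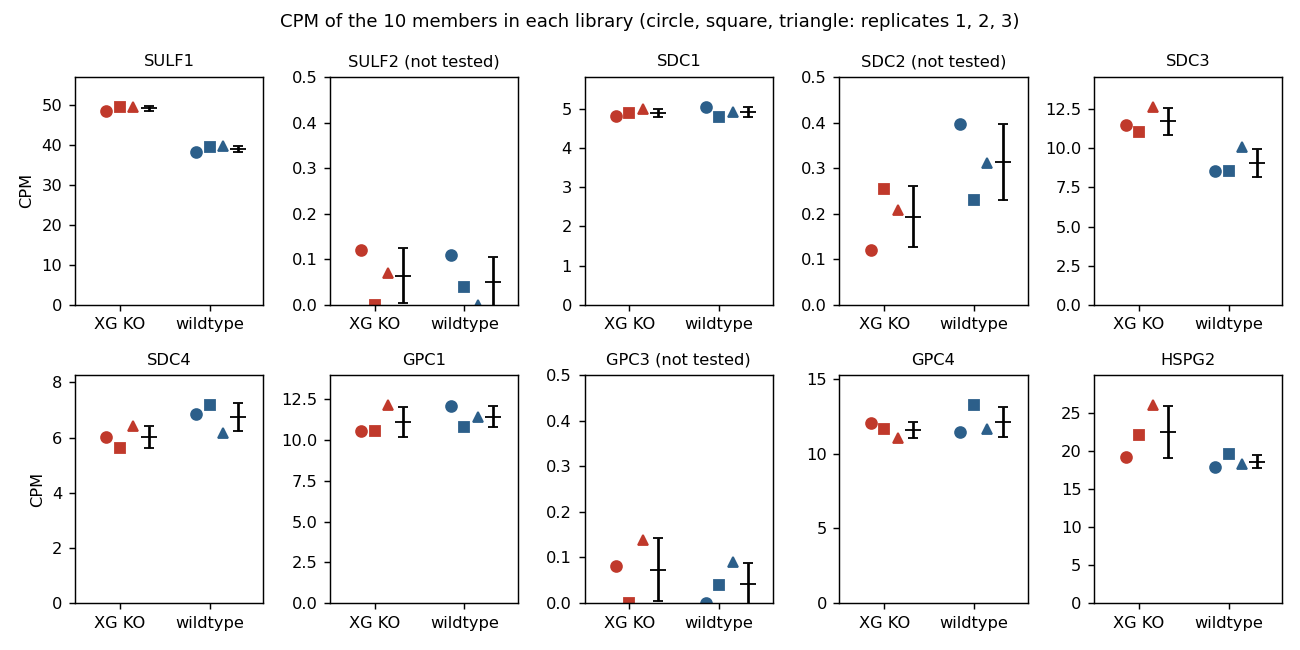
CPM (vertical axes, from 0) of the 10 genes in 3 XG knockout and 3 wildtype libraries, with the mean and SD beside each group. SULF1 and SDC3 are separated without overlap, and SULF2, SDC2 and GPC3 lie below 0.5 CPM in all 6 libraries.

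The sulfatase pair was represented by SULF1. SULF1 had 48.5, 49.6 and 49.6 CPM in knockout replicates 1, 2 and 3 (1208, 1569 and 1436 counts), against 38.3, 39.5 and 39.7 CPM in wildtype replicates 1, 2 and 3 (1058, 1028 and 892 counts). The lowest knockout library was above the highest wildtype library, and libraries of a group lay close together. SULF1 averaged 49.2 ± 0.616 CPM in knockout and 39.1 ± 0.751 CPM in wildtype cells (SD, n = 3 each), so that the knockout level was 125.8% of wildtype. The log2 fold change was 0.33 (SE 0.0438, 95% interval 0.24 to 0.42, edgeR quasi-likelihood test with Benjamini-Hochberg adjustment, adjusted p = 0.000909). The authors' deposited table gives SULF1 a log2 fold change of 0.33 with adjusted p = 2.09e-05. SULF1 was also past the threshold in each of 15 alternative settings, at log2 fold changes of 0.30 to 0.34 and adjusted p of 5.75e-08 to 0.0214. With knockout replicate 3 as the lone knockout library, assumed to vary like the wildtype libraries, its log2 fold change was 0.34 (edgeR adjusted p = 4.11e-06), and without that library it was 0.33 (edgeR adjusted p = 1.31e-06).

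SULF2, the other extracellular sulfatase, was at the limit of detection. It had 3, 0 and 2 counts in knockout replicates 1, 2 and 3 and 3, 1 and 0 counts in wildtype replicates 1, 2 and 3, 5 against 4 in sum. It was below the filter and was not tested, and at this depth no difference could be detected. SUMF1, which converts a cysteine in the active site of sulfatases to the residue they need, had 11.7 ± 0.773 CPM in knockout and 10.7 ± 0.745 CPM in wildtype cells (SD, n = 3 each) and a log2 fold change of 0.13 that did not pass the test; it is named here after its values were seen.

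Among the syndecans, SDC3 was higher in knockout cells, SDC1 and SDC4 did not pass the test, and SDC2 was below the filter on low counts. SDC3, a syndecan best known from neural and muscle cells, had 11.5, 11.04 and 12.7 CPM in knockout replicates 1, 2 and 3 (286, 349 and 367 counts), against 8.54, 8.56 and 10.1 CPM in wildtype replicates 1, 2 and 3 (236, 223 and 227 counts). The groups did not overlap, and wildtype replicate 3 came closest to the knockout libraries. SDC3 averaged 11.7 ± 0.844 CPM in knockout and 9.07 ± 0.895 CPM in wildtype cells (SD, n = 3 each), with a log2 fold change of 0.38 (SE 0.0890, 95% interval 0.19 to 0.56, edgeR adjusted p = 0.0411). This call was near the threshold. It was past it in 7 of 15 alternatives, with adjusted p of 0.00131 to 0.221, and was lost with DESeq2 (adjusted p = 0.0586), a filter of 100 counts (edgeR adjusted p = 0.0589), the replicate block (0.0801), and without wildtype replicate 1 (0.220), 2 (0.221) or 3 (0.0826) or knockout replicate 1 (0.0823) or 2 (0.0814). With the GC correction the SDC3 log2 fold change was 0.44 (edgeR adjusted p = 0.00131), with knockout replicate 3 as the lone knockout library 0.49 (0.0034), and without that library 0.32 (0.0187). The authors' deposited table gives SDC3 a log2 fold change of 0.37 with p = 0.00229 and no adjusted p.

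SDC1, the syndecan typical of epithelial and plasma cells, had 4.82, 4.90 and 5.01 CPM in knockout replicates 1, 2 and 3 and 5.07, 4.80 and 4.94 CPM in wildtype replicates 1, 2 and 3. The ranges overlapped almost fully, and the log2 fold change was -0.0069 (95% interval -0.23 to 0.22, edgeR adjusted p = 0.984), with a sign that turned with the GC correction (0.071, adjusted p = 0.836). SDC4, a widely expressed syndecan of focal adhesions, had 6.03, 5.63 and 6.42 CPM in knockout replicates 1, 2 and 3 and 6.84, 7.18 and 6.18 CPM in wildtype replicates 1, 2 and 3. Wildtype replicate 3 lay within the knockout range, and the log2 fold change was -0.17 (95% interval -0.38 to 0.048, edgeR adjusted p = 0.443). SDC2, the syndecan of mesenchymal cells, had 3, 8 and 6 counts in knockout replicates 1, 2 and 3 and 11, 6 and 7 counts in wildtype replicates 1, 2 and 3. These sums of 17 and 24 counts were below the filter, and SDC2 was not tested.

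Neither tested glypican passed the test. GPC1, the glypican prominent in brain and muscle, had 10.6, 10.6 and 12.2 CPM in knockout replicates 1, 2 and 3 and 12.1, 10.8 and 11.4 CPM in wildtype replicates 1, 2 and 3. The ranges overlapped, with a log2 fold change of -0.044 (95% interval -0.22 to 0.13, edgeR adjusted p = 0.836), and the sign turned with the GC correction (0.084, adjusted p = 0.675). GPC4, a glypican of stem cells and kidney, had 12.1, 11.6 and 11.01 CPM in knockout replicates 1, 2 and 3 and 11.4, 13.2 and 11.7 CPM in wildtype replicates 1, 2 and 3. Its log2 fold change was -0.068 (95% interval -0.24 to 0.099, edgeR adjusted p = 0.724). GPC3, the oncofetal glypican and neighbour of GPC4, had 2, 0 and 4 counts in knockout replicates 1, 2 and 3 and 0, 1 and 2 counts in wildtype replicates 1, 2 and 3, and was not tested.

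HSPG2, the gene of perlecan, was spread widely among the knockout libraries. It had 19.2, 22.1 and 26.0 CPM in knockout replicates 1, 2 and 3 (478, 699 and 754 counts), against 17.9, 19.6 and 18.3 CPM in wildtype replicates 1, 2 and 3 (495, 510 and 412 counts). Knockout replicate 1 lay within the wildtype range, and replicates 2 and 3 lay above it. HSPG2 averaged 22.4 ± 3.43 CPM in knockout and 18.6 ± 0.866 CPM in wildtype cells (SD, n = 3 each), with a log2 fold change of 0.28 (SE 0.0852, 95% interval 0.096 to 0.45) that missed the threshold (edgeR adjusted p = 0.112; unadjusted p = 0.00462). The value depended on the setting. It was 0.39 (edgeR adjusted p = 0.000141) with the GC correction, 0.37 (0.0331) without knockout replicate 1 and 0.48 (1e-06) with knockout replicate 3 as the lone knockout library, against 0.16 (0.141) without knockout replicate 3; HSPG2 also passed with no filter on low counts (0.00379), and over 15 alternatives its adjusted p ranged from 1e-06 to 0.337. The authors' deposited table gives HSPG2 a log2 fold change of 0.27 with adjusted p = 0.138.

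**Figure D2:**
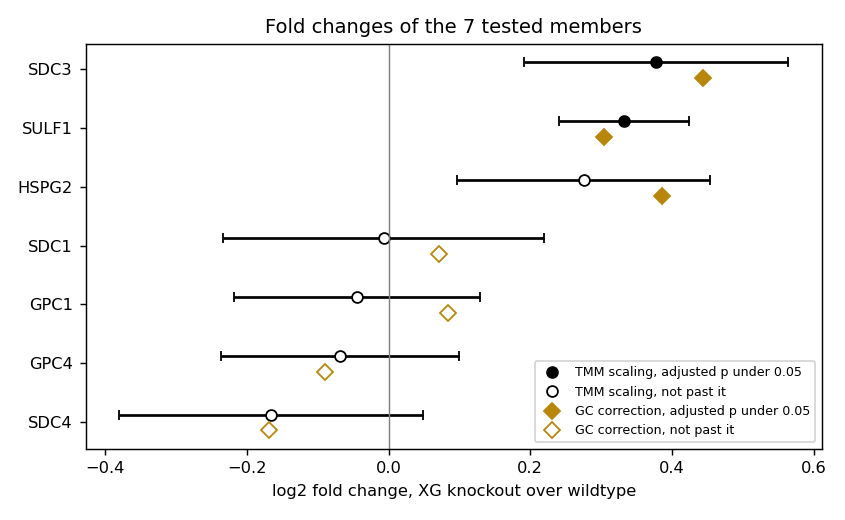
Log2 fold change of XG knockout over wildtype (horizontal axis) for the 7 tested genes, with 95% intervals for counts scaled by TMM (circles) and values after the GC correction (diamonds), filled where the adjusted p is under 0.05. SDC3 and SULF1 are past the threshold with both, and HSPG2 with the GC correction.

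**Figure D3:**
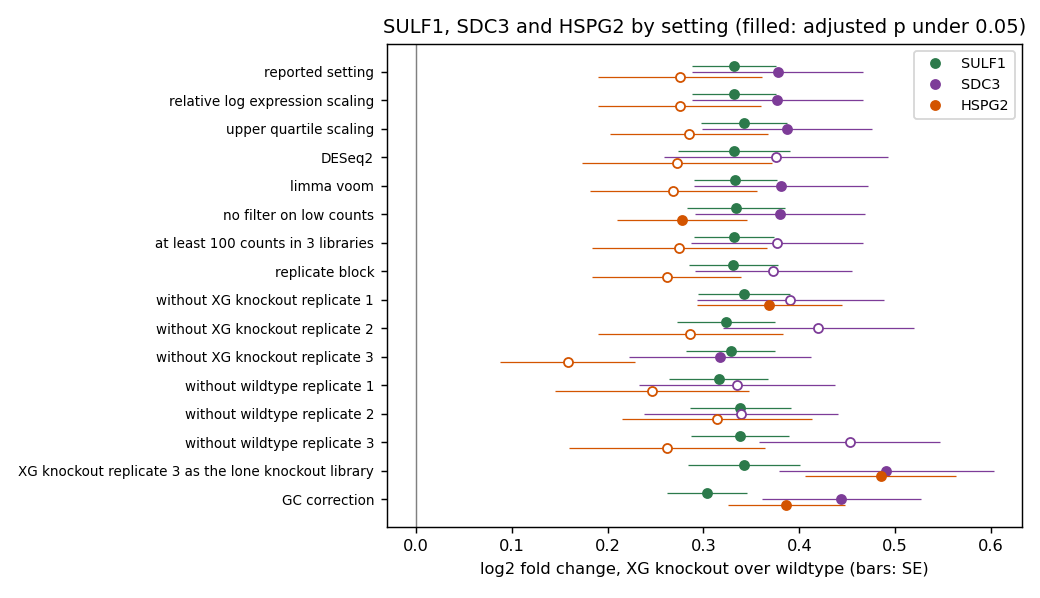
Log2 fold changes with SE (horizontal axis) of SULF1, SDC3 and HSPG2 under the reported setting and 15 alternatives, filled where the adjusted p is under 0.05. SULF1 stays between 0.30 and 0.34, SDC3 between 0.32 and 0.49 and HSPG2 between 0.16 and 0.48.

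Of the 10 genes, 7 passed the filter on low counts. Of these, 2 were called higher and 0 lower by edgeR, with 3 at an unadjusted p under 0.05, while DESeq2 called 1 (SULF1) and limma voom called 2. Among all 14425 genes tested, 1.36% were called, 0.444% higher and 0.915% lower. The libraries of the groups did not overlap in 2 of the 7 genes, against 20.5% of all genes tested. Of the 7482 genes with an adjusted p in the authors' deposited table, 2.66% were under 0.05, SULF1 among them. The groups of this comparison were what the genes were chosen on, so these counts describe them only. The median log2 fold change was -0.0069 over the 7 genes and 0.0019 over all genes tested.

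Levels of different genes were compared as CPM per kilobase of exon. SULF1 was highest in both groups, at 5.25 ± 0.0658 in knockout and 4.18 ± 0.0802 CPM per kilobase in wildtype cells (SD, n = 3 each). In wildtype cells this was near the median of all tested genes (49.5th percentile), and the other 6 tested members lay at percentiles of 26.0 to 39.9. SDC4 and GPC4 came next, with overlapping ranges in both groups, at 2.31 and 2.33 in knockout and 2.58 and 2.44 CPM per kilobase in wildtype cells. GPC1 followed, at 1.70 ± 0.139 in knockout and 1.76 ± 0.102 CPM per kilobase in wildtype cells. SDC3 stood at 1.66 ± 0.119 in knockout cells, overlapping GPC1 and above every library of SDC1, and at 1.28 ± 0.127 CPM per kilobase in wildtype cells, where its range overlapped that of SDC1 (1.37 ± 0.0371). HSPG2, the longest at 18118 exon bases, was at 1.24 ± 0.189 in knockout and 1.03 ± 0.0478 CPM per kilobase in wildtype cells. SDC2, GPC3 and SULF2 were each below 0.1 CPM per kilobase in all libraries.

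**Figure D4:**
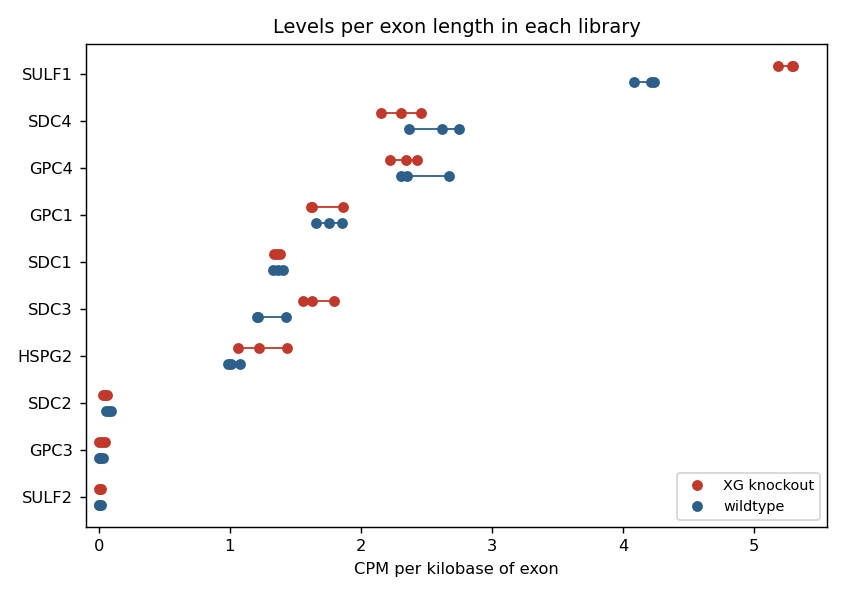
CPM per kilobase of exon (horizontal axis) of the 10 genes, each point 1 library and each line the range of 3, with XG knockout above wildtype. SULF1 leads in both groups, SDC3 lies above SDC1 in knockout libraries and overlaps it in wildtype libraries, and SDC2, GPC3 and SULF2 lie near 0.

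Summed over the 8 core proteins, the level was 10.7 ± 0.509 in knockout and 10.5 ± 0.195 CPM per kilobase in wildtype cells (SD, n = 3 each), a difference smaller than the spread among knockout libraries. Within this sum SDC3 made up 15.6, 15.1 and 15.9% in knockout replicates 1, 2 and 3, against 11.5, 11.3 and 13.8% in wildtype replicates 1, 2 and 3. SDC4 made up 21.6 ± 0.652% in knockout and 24.4 ± 1.45% in wildtype cells, GPC4 21.9 ± 1.91% in knockout and 23.2 ± 1.48% in wildtype cells, and HSPG2 11.6 ± 1.32% in knockout and 9.74 ± 0.303% in wildtype cells (SD, n = 3 each). Shares of 1 sum are not independent, so a larger share of SDC3 lowers the summed share of the others.

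Around these genes, 11 lists of the heparan sulfate pathway held 167 other genes, of which 119 were tested. FGFR3 was the 1 gene called, lower in knockout cells, and 0 were called higher by edgeR, with 28 of the 119 (23.5%) at an unadjusted p under 0.05 against 16.8% of all genes tested. DESeq2 and limma voom each called FGFR3 and no other gene of the lists. The share called was 0.84%, against 1.36% of all genes, and the median log2 fold change was 0.007, against 0.0019 for all genes.

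**Figure D5:**
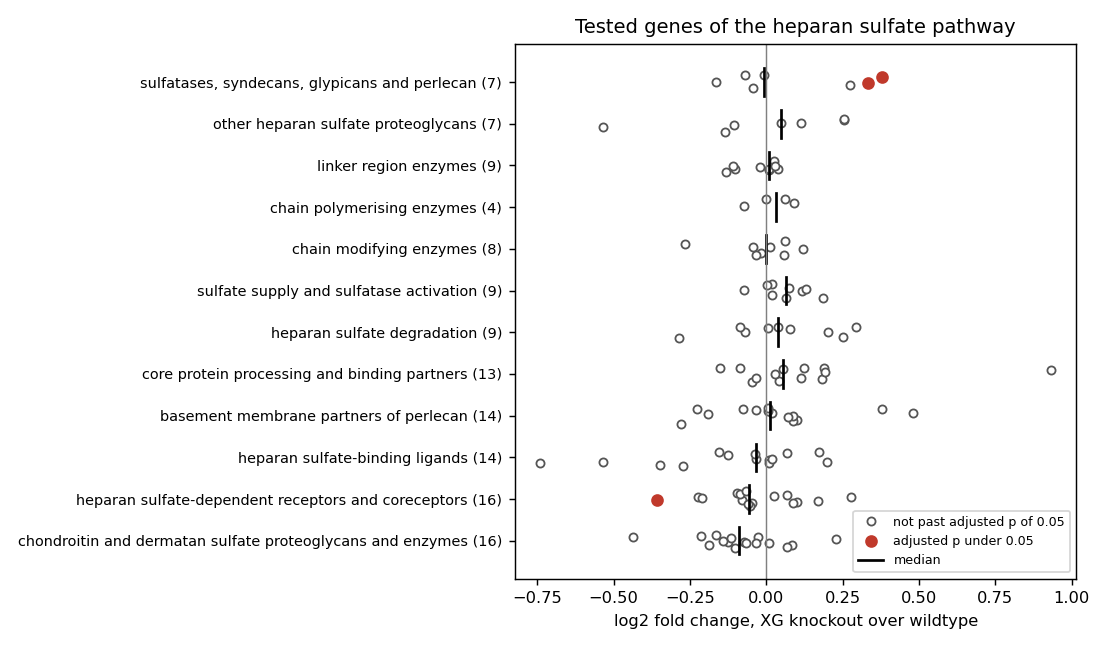
Log2 fold changes of XG knockout over wildtype (horizontal axis) for the tested genes of each list, with the number tested in brackets and the median as a bar. SULF1, SDC3 and FGFR3 are the filled points, and the list medians lie near 0.

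FGFR3, a fibroblast growth factor receptor that binds its ligands together with heparan sulfate, had 30.0, 32.6 and 35.2 CPM in knockout replicates 1, 2 and 3, against 40.9, 41.3 and 43.4 CPM in wildtype replicates 1, 2 and 3. All knockout libraries were below all wildtype libraries, and the average fell to 32.6 ± 2.59 CPM in knockout, against 41.9 ± 1.34 CPM in wildtype cells (SD, n = 3 each; log2 fold change -0.36, SE 0.056, edgeR adjusted p = 0.00395). The longest FGFR3 transcript is 62.0% G or C. The FGFR3 log2 fold change was -0.26 with the GC correction (edgeR adjusted p = 0.00045) and -0.25 with knockout replicate 3 as the lone knockout library (0.0122), and leaving out wildtype replicate 3 ended the call (0.0576). The other tested receptors and coreceptors, 15 of 16, were not called (5 of 16 at an unadjusted p under 0.05). The most abundant per length were FZD7, a frizzled receptor for WNT, at 67.0 ± 3.15 in knockout and 71.0 ± 2.77 CPM in wildtype cells, and its coreceptor LRP6, at 176 ± 5.72 in knockout and 164 ± 3.51 CPM in wildtype cells. Of 14 tested ligands 0 were called (3 at an unadjusted p under 0.05). MDK, the growth factor midkine, had 50.5 ± 2.71 in knockout and 56.1 ± 0.716 CPM in wildtype cells (log2 fold change -0.15, edgeR adjusted p = 0.0984), and SLIT2, an axon guidance ligand, 116 ± 2.76 in knockout and 115 ± 1.34 CPM in wildtype cells.

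Of the genes that build the chain, 9 of 11 in the linker list and 4 of 5 in the polymerising list passed the filter, and edgeR called 0 of them. XYLT1, an enzyme that starts the linker, had 4 to 11 counts in each library, and SLC35D2 and EXTL1 were below the filter too. XYLT2, of the same list, passed the filter, with 29.9 ± 1.93 in knockout and 32.1 ± 1.73 CPM in wildtype cells. It is named here after its values were seen. In the linker region, where synthesis starts on the core protein, 0 of the 9 tested genes were called (1 at an unadjusted p under 0.05), and FAM20B, the xylose kinase, had 135 ± 5.55 in knockout and 134 ± 3.95 CPM in wildtype cells (SD, n = 3 each). B3GAT3, which adds the last sugar of the linker, had 43.5 ± 3.98 in knockout and 44.1 ± 2.88 CPM in wildtype cells. EXT1 and EXT2 together polymerise heparan sulfate. EXT1 had 120 ± 1.57 in knockout and 115 ± 3.96 CPM in wildtype cells, and EXT2 106 ± 4.14 in knockout and 106 ± 1.94 CPM in wildtype cells. Of the 4 tested polymerising enzymes 0 were called, also at an unadjusted p under 0.05.

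Of 16 modifying enzymes 8 were tested and 0 called (1 at an unadjusted p under 0.05), and HS3ST3A1, HS3ST5 and HS3ST6 had no count in any library. HS3ST4, which adds a rare sulfate to the chain and is known mainly from neurons, had 66.4 ± 1.87 in knockout and 68.3 ± 2.08 CPM in wildtype cells, and was the highest of the list per length. GLCE, the epimerase that turns glucuronic into iduronic acid, had 78.7 ± 3.26 in knockout and 75.3 ± 2.76 CPM in wildtype cells. Among genes of sulfate supply and sulfatase activation 0 of 9 were called, also at an unadjusted p under 0.05. BPNT2, a Golgi phosphatase of the sulfation by-product, had 260 ± 6.67 in knockout and 259 ± 0.99 CPM in wildtype cells, and SLC35B2, which carries the sulfate donor into the Golgi, 77.6 ± 4.32 in knockout and 81.6 ± 0.244 CPM in wildtype cells. In the lysosomal and heparanase list 0 of 9 were called (2 at an unadjusted p under 0.05). Its glucuronidase GUSB had 52.6 ± 1.04 in knockout and 55.8 ± 0.932 CPM in wildtype cells.

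Core protein processing and binding partners had 0 of 13 genes called (4 at an unadjusted p under 0.05). SDCBP, the scaffold syntenin that binds syndecan tails, had 130 ± 0.309 in knockout and 125 ± 2.48 CPM in wildtype cells, and PDCD6IP, which joins it in exosome formation, 182 ± 1.95 in knockout and 177 ± 1.47 CPM in wildtype cells. Basement membrane partners of perlecan had 0 of 14 called. At an unadjusted p under 0.05 were 7 of the 14 (50%), some higher and some lower, against 16.8% of all genes tested. The laminin chain LAMB1 had 144 ± 3.63 in knockout and 143 ± 3.19 CPM in wildtype cells, and DAG1, the perlecan and laminin receptor dystroglycan, 157 ± 6.5 in knockout and 165 ± 5.7 CPM in wildtype cells. Of 7 other tested heparan sulfate proteoglycans 0 were called (1 at an unadjusted p under 0.05). Agrin (AGRN, 67.5% GC) had 152 ± 28.4 in knockout and 167 ± 11.4 CPM in wildtype cells. Its knockout libraries split, at 124, 151 and 181 CPM in replicates 1, 2 and 3, the last above every wildtype library. GPC6 had 61.5 ± 1.97 in knockout and 59.5 ± 2.55 CPM in wildtype cells. Per length, AGRN and GPC6 were both above each of the 8 core proteins described here. Chondroitin and dermatan sulfate genes had 0 of 16 called (4 at an unadjusted p under 0.05), with 12 negative and a median log2 fold change of -0.088; over all genes tested 7084 of 14425 were negative. Knockout replicates 1 and 2 were lower in the GC-rich class. Of the 12 negative genes, CSPG5 (58.6% GC), BGN (61.2%), CHPF2 (61.4%) and CHPF (67.6%) are in that class. The other negative genes are outside it, at 39.7% (DSE) to 57.1% (CHST3). The part of GC content in this count was not tested. In that list CHSY1, a chondroitin synthase, had 86.8 ± 2.1 in knockout and 86.1 ± 2.64 CPM in wildtype cells, and CHPF, a subunit of the same activity, 31.3 ± 3.24 in knockout and 34.1 ± 1.49 CPM in wildtype cells.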

How the data were processed

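Stranded mRNA libraries of XG knockout (3) and wildtype (3) TC-71 cells were compared, grouped and numbered by sample titles. The deposited counts are whole fragments per gene, which the authors obtained from featureCounts (Subread 2.0.1) on GENCODE 33 exons with paired-end, reverse-strand settings and no option for multi-mapping reads, per the file headers; alignment was with STAR 2.7.6a on GRCh38, per the submitters' processing notes. Exon lengths (other values) are those of the deposited table. The authors' deposited log2 fold changes, with a base-mean signal, a Wald score and p-values, come from DESeq2 1.38.3 in R 4.2.2, per the submitters' processing notes; their direction is not stated, and the sign was that of knockout over wildtype in 99.2% of tested genes.

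Counts were filtered with filterByExpr (minimum count 10, minimum total 15), scaled by TMM and tested with edgeR 4.0.16 (glmQLFit, glmQLFTest, two-sided, no covariate, Benjamini-Hochberg over all 14425 genes, threshold 0.05) in R 4.3.3. The 95% intervals use the moderated degrees of freedom. CPM are counts over TMM-scaled library sizes. At library totals of 22557187 to 31214099, the median SE of a log2 fold change was 0.0636. The 10 members and all lists were chosen with earlier results of these data known. The naming rule took all members, called genes of the other lists and the 2 highest per length in each, of which 1 is not reported here. Every list entry matched a row, BPNT2 by gene identifier. Counts of NDST2, IDS and SLC35D2 are uncertain, since 82.9, 75.9 and 46.9% of their exon bases are shared with other genes of the same strand.

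Alternatives were other scalings, DESeq2 1.42.0, limma 3.58.1 voom, other filters, the replicate block, leaving out each library, knockout replicate 3 as the lone knockout library, a threshold of 0.01, and a GC correction (lowess, span 0.5, on the longest GENCODE transcript of an earlier release, entered as offsets). Those for FGFR3 were chosen after seeing the data. Scripts were tested on simulated data. No 2 libraries of a group agreed within sampling noise (chi-square of 2.80 to 4.76 per gene in knockout and 1.46 to 1.72 in wildtype), and none were merged.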

Additional observations from a re-analysis of the deposited data

How the results depend on the processing

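Among all genes, 196 were called (67.3% lower), against 647 without a filter on low counts, 339 with the GC correction (53.7% lower), 37 with the replicate block, 125 with knockout replicate 3 as the lone knockout library, 33 at an adjusted p of 0.01 and 18 to 1851 with single libraries left out. Of the members 2 were called; 1 was called with DESeq2, with at least 100 counts in 3 libraries, with the replicate block and at an adjusted p of 0.01, and 1 to 2 with single libraries left out (SULF1 and HSPG2 without knockout replicate 1); 3 were called without a filter, with the GC correction and with knockout replicate 3 as the lone knockout library. Of the other pathway genes 1 was called, against 8 without a filter, 2 with the GC correction, 2 with knockout replicate 3 as the lone knockout library and 0 to 28 with single libraries left out (28 without knockout replicate 3). MMP9, named after its values were seen, was the gene added by the GC correction. The replicate numbers did not pair the libraries (correlations of same-numbered deviations -0.046, -0.024 and -0.051), and the replicate block changed the call of SDC3 and of no other member. The sign of SDC1 (-0.0069) turned with upper quartile scaling (0.0028), the GC correction (0.0707), the lone knockout replicate 3 (0.0207) and without knockout replicate 1 (0.00469) or wildtype replicate 1 (0.0138), and ranged from -0.0276 to 0.0138 with single libraries left out. The sign of GPC1 turned with the GC correction (0.0838), the lone knockout replicate 3 (0.0853) and without wildtype replicate 1 (0.00175), and that of GPC4 without wildtype replicate 2 (0.00192); with single libraries left out GPC1 ranged from -0.115 to 0.00175 and GPC4 from -0.111 to 0.00192. The order of levels in wildtype cells, which knockout libraries do not enter, kept all 10 places with relative log expression scaling and without wildtype replicate 1 or 2, and 8 without wildtype replicate 3 (GPC3 and SULF2 changed places). Over the 7 tested members and 15 alternatives each, 84 values kept their direction and side of the threshold (for 2 of them, SDC1 and SDC4 with DESeq2, there was no adjusted p and only the direction was compared), 8 lost the call (all SDC3), 4 gained it (all HSPG2) and 9 turned sign. The causes were not tested. Depth limits SULF2, SDC2 and GPC3, which were below the filter; without a filter none of these 3 was called, and the authors' deposited table gives them p-values of 0.861, 0.358 and 0.631 with no adjusted p.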
